A study of Mus musculus with 26 samples.

Results

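Livers from mice with a heterozygous Mtarc1 knockout were compared with wildtype livers on the same diet, in 7 heterozygous and 6 wildtype libraries, 13 of the 26 in the study. The libraries were chosen by their titles, and every gene expressed in the liver was tested. Both groups had been fed CDAHFD, a choline-deficient, high-fat feed built from defined L-amino acids, for 2 weeks before RNA was taken. The other groups, used here only beside these values, were livers of homozygous Mtarc1 knockouts on CDAHFD (8 libraries) and of wildtype mice on control chow (5 libraries). Strain, age, sex and the part of Mtarc1 that was deleted are not given in the sources used here, and no heterozygous liver on chow was measured, so these data do not separate a difference already there on chow from a different response to CDAHFD. Nothing in the labels ties each library to its own mouse. A p-value therefore covers the spread among these libraries, part of which may be technical.

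Mtarc1 encodes mARC1, an enzyme of the outer mitochondrial membrane that reduces N-hydroxylated compounds with a molybdenum cofactor and receives its electrons through cytochrome b5 and its reductase. Mtarc2 encodes a closely related enzyme. Hepatocytes express both, and variants that lower the function of the human gene are linked to less fatty liver disease. Choline is needed to build phosphatidylcholine and export lipid from hepatocytes as lipoproteins, and a diet without it brings fat, macrophages and scar matrix into the liver. A heterozygote keeps one intact copy, and its comparison with wildtype asks what the loss of a single copy does to the liver transcriptome under that diet.

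Sequencing depth lay between 22.5 and 29.91 M (units of 1000000) estimated counts per library, with a mean of 24.9 ± 1.86 M (SD, n = 6) in wildtype and 27.1 ± 1.81 M (n = 7) in heterozygous libraries. Hepatocyte genes were abundant in all 13, with Alb between 41436.5 and 69344.9 CPM (counts per 1000000 on TMM-scaled library sizes) and Hnf4a between 315.8 and 593.3 CPM. Xist lay between 723.8 and 1062.5 CPM, and the Y-linked genes Ddx3y, Uty, Kdm5d and Eif2s3y did not exceed 1.20 CPM. Library numbers fall into a series in the 9000s (wildtype libraries 1 to 3, heterozygous libraries 1 to 3) and a series in the 11000s (wildtype 4 to 6, heterozygous 4 to 7). The labels do not call these batches. Transcripts of the mitochondrial genome took 10.1 ± 2.33% of counts in wildtype and 8.08 ± 1.85% in heterozygous libraries (two-sided exact permutation p = 0.108).

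The main axis of variation divided the genotypes only in part. The first principal component held 28.2% of the variance, and 4 libraries lay at one end of it, between -46.93 and -30.62: wildtype 1, 2 and 5 and heterozygous 4. These were also the 4 with more than 11% mitochondrial transcripts, a level chosen after the values were seen, and the other 9 lay between -9.83 and 40.48. Wildtype libraries 2 and 3 stood apart in another way, with the highest levels of several scar matrix genes given below. They also held the highest levels among wildtype libraries of the macrophage genes Trem2 and Gpnmb. Several list medians below are given with and without these libraries.

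**Figure D1:**
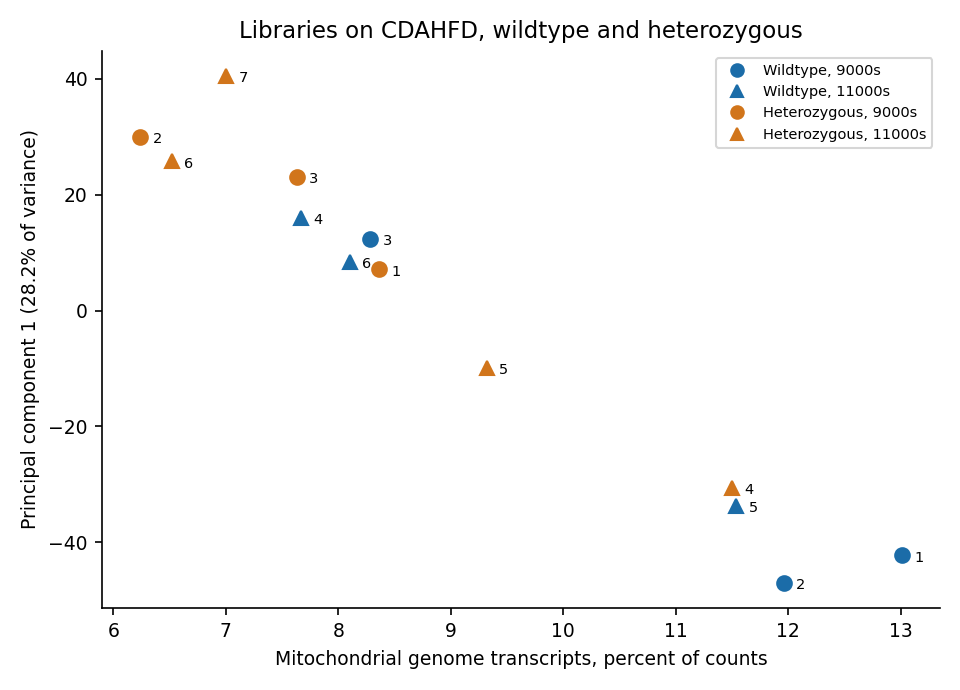
First principal component of the 13 libraries (y axis, with its share of the variance) against the percent of counts from mitochondrial genome transcripts (x axis). Blue marks wildtype and orange heterozygous libraries on CDAHFD, circles the 9000s and triangles the 11000s, and numbers are library numbers within the group. The 4 libraries above 11%, 3 wildtype and 1 heterozygous, lie between -46.93 and -30.62 on the component.

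Mtarc1 (ENSMUSG00000026621, chromosome 1) was lower in heterozygous than in wildtype livers and lay between the wildtype and homozygous levels. Wildtype libraries 1 to 6 held 215.5, 192.9, 246.4, 291.2, 195.0 and 269.9 CPM. Heterozygous libraries 1 to 7 held 188.9, 208.0, 147.5, 111.6, 161.5, 130.3 and 176.9 CPM. Of the heterozygous libraries 6 lay below every wildtype library, and heterozygous library 2 lay within the wildtype range. The means were 235.2 ± 40.7 CPM (SD, n = 6) and 160.7 ± 33.7 CPM (SD, n = 7), so heterozygous livers held 68.3% of the wildtype level (two-sided exact permutation p = 0.00466, where 0.00117 is the smallest possible). As a share of the raw library total the value was 66.2%, at the smallest possible p of 0.00117. Homozygous livers held 48.7 ± 10.4 CPM (n = 8) and wildtype livers on chow 305.4 ± 40.2 CPM (n = 5).

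On a linear scale the middle between wildtype and homozygous Mtarc1 was 141.9 CPM, and 5 of 7 heterozygous libraries lay above it. On the log2 scale the heterozygous level was above the middle of the other genotypes by 0.59 ± 0.12 (SE, edgeR quasi-likelihood test, unadjusted p = 4.76e-05, adjusted p = 0.625). Within the number series the reduction differed in size. Heterozygous livers held 83.1% of the wildtype level in the 9000s (181.4 ± 30.9 against 218.3 ± 26.8 CPM, n = 3 and 3, exact permutation p = 0.200). They held 57.6% in the 11000s (145.1 ± 29.6 against 252.0 ± 50.6 CPM, n = 4 and 3, exact permutation p = 0.0571, the smallest possible). The difference between the series was 0.53 ± 0.29 on the log2 scale (edgeR interaction term, unadjusted p = 0.0820, adjusted p = 0.585).

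Mtarc2 (ENSMUSG00000073481), the paralogous reductase beside Mtarc1 on chromosome 1, had the same mean in both genotypes. It stood at 340.5 ± 25.7 CPM in wildtype (range 310.4 to 376.9, n = 6) and 340.1 ± 39.3 CPM in heterozygous livers (range 283.5 to 373.6, n = 7), with a two-sided exact permutation p of 0.988. The groups overlapped over most of their range.

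**Figure D2:**
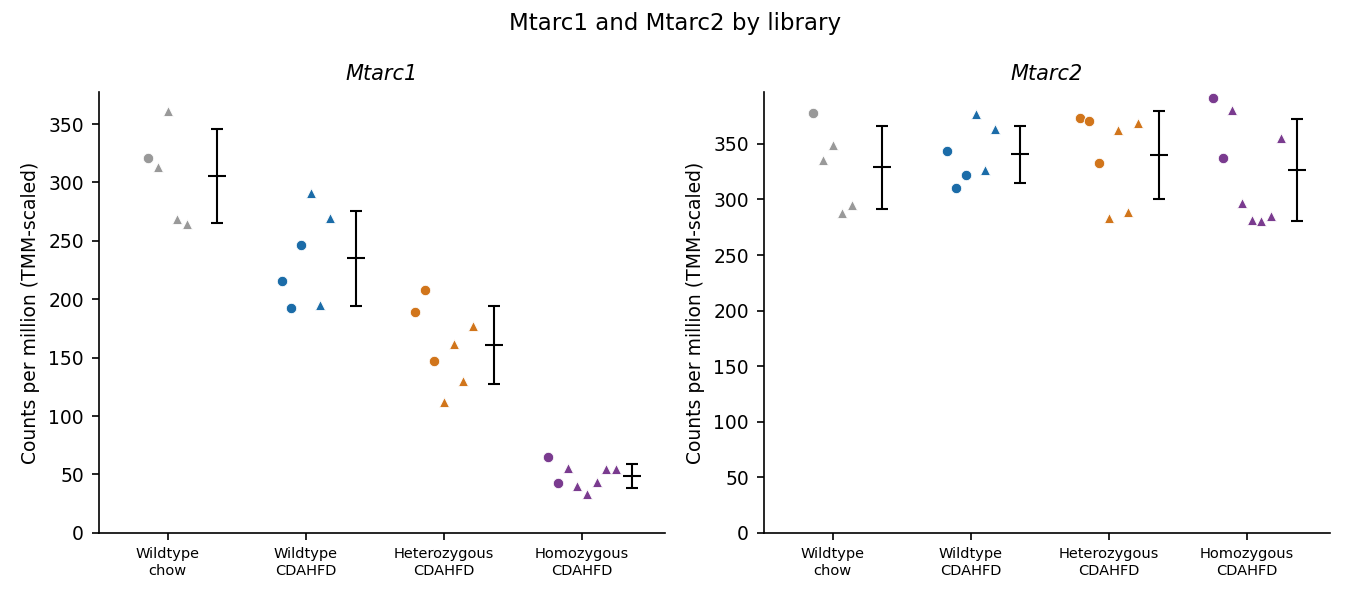
Mtarc1 and Mtarc2 level in every library (y axis, CPM on TMM-scaled library sizes) for the 4 groups (x axis). Circles are libraries of the 9000s and triangles of the 11000s, and the bar beside each group is the mean with its SD. Heterozygous Mtarc1 values run from 111.6 to 208.0 CPM, overlapping the lower end of the wildtype CDAHFD range of 192.9 to 291.2 and above the homozygous mean of 48.7, while Mtarc2 overlaps in all groups.

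No gene passed the test between heterozygous and wildtype livers after adjustment. edgeR called 0 of 17104 genes (0%) at an adjusted p under 0.05, and the lowest adjusted p was 0.569. At an unadjusted p under 0.05 there were 1444 genes (8.44%), 706 higher (4.13%) and 738 lower (4.31%) in heterozygous livers. voom also called 0, with 1459 genes at an unadjusted p under 0.05. DESeq2 called 2 genes, both lower and, of the 13 libraries, both with reads in a pair of wildtype libraries only. The ribosomal pseudogene Rpl36a-ps2 had 6.93 and 5.20 CPM in wildtype libraries 1 and 5, and 0 in the other wildtype and all heterozygous libraries. Gm14440 had 5.13 and 5.38 CPM in wildtype libraries 1 and 6 and 0 in the rest. A pseudogene can take reads from its parent gene, and both values are uncertain. Over all genes the median log2 fold change was -0.01 and 48.7% of values lay above 0 and 51.3% below. These values, with the 4.13% higher and 4.31% lower at an unadjusted p under 0.05, were the background for every list below. In the same fit wildtype CDAHFD against chow gave 4630 called genes (27.1%), and homozygous against wildtype on CDAHFD gave 1 (0.00585%), Mtarc1.

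**Figure D3:**
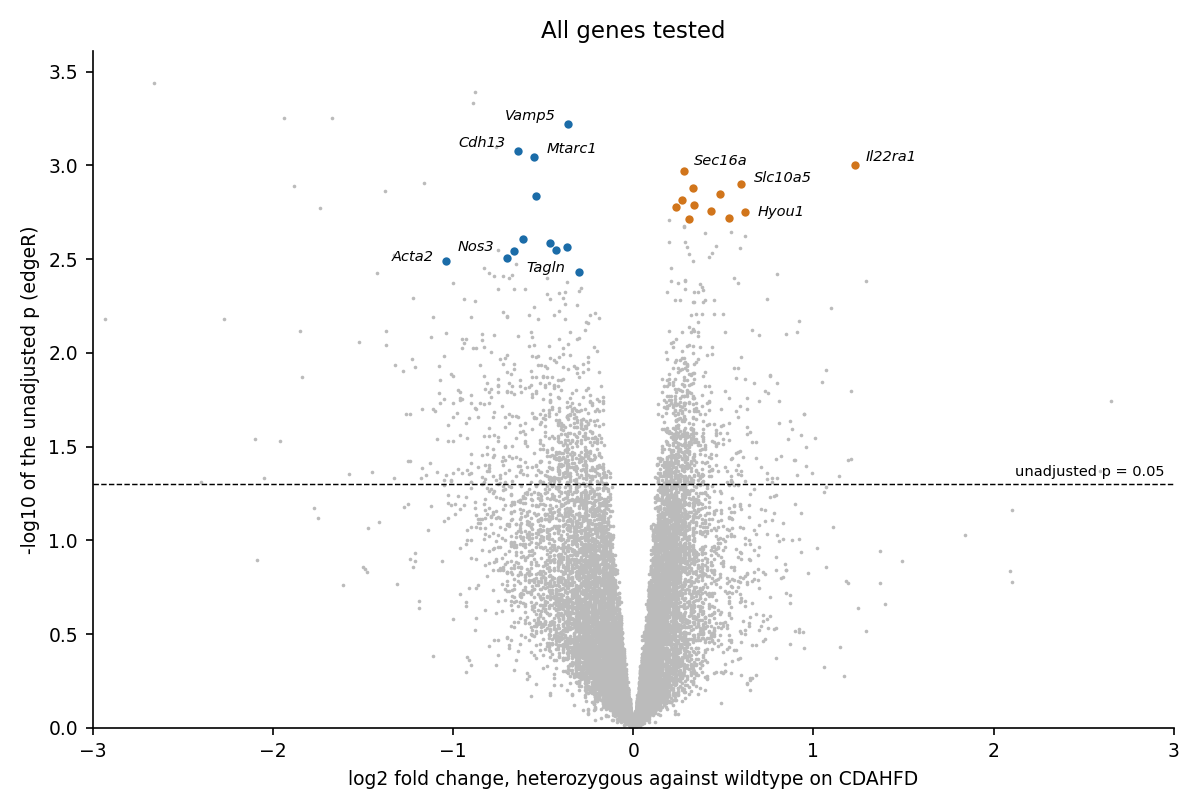
Log2 fold change of each tested gene, heterozygous against wildtype on CDAHFD (x axis), against the -log10 of its unadjusted p (y axis, edgeR). Orange and blue mark the 12 protein-coding genes with the lowest p in each direction at a mean of at least 1 CPM; 12 genes beyond a log2 fold change of 3 in size are not drawn. No gene passed after adjustment, and Mtarc1 lies among the lower genes at -0.55.

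The genes with the lowest p are given as the closest to a difference in these data, since none passed. The 12 with higher values in heterozygous livers included Sec16a, Uggt1, Nbas and Hyou1, which are known from the endoplasmic reticulum (ER), where secreted proteins are folded, and its traffic with the Golgi. Sec16a, a scaffold of the ER exit sites, stood at a lowest, median and highest value of 71.1, 78.3 and 85.1 CPM in wildtype and 82.4, 97.5 and 107.0 CPM in heterozygous libraries. Its log2 fold change was 0.28 ± 0.08 (SE, unadjusted p = 0.00107), and 6 of 7 heterozygous libraries lay above every wildtype library. Uggt1, which checks the folding of glycoproteins, ran from 51.7 to 67.2 CPM (median 59.1) in wildtype and from 64.3 to 85.9 CPM (median 73.3) in heterozygous libraries (0.34 ± 0.10, unadjusted p = 0.00162). Nbas, part of a tether for vesicles returning from the Golgi, stood at 17.2 ± 1.95 against 23.3 ± 4.04 CPM. The lowest heterozygous values of Uggt1 and Nbas lay within the wildtype range, and 6 and 5 of the 7 libraries lay above it.

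The ER chaperone gene Hyou1 stood at 98.1 to 139.1 CPM (median 108.0) in wildtype and 98.1 to 224.1 CPM (median 180.4) in heterozygous libraries, a log2 fold change of 0.62 ± 0.18 (unadjusted p = 0.00177). Of the heterozygous libraries 6 lay above every wildtype library, and library 7 was at the wildtype minimum. Hspa5, the main ER chaperone BiP, showed the same split, with 463.9 to 627.4 CPM (median 516.1) in wildtype and 650.5 to 1021.0 CPM in 6 heterozygous libraries, while library 7 had 455.1 CPM. Its log2 fold change was 0.54 ± 0.16 (unadjusted p = 0.00226). The protein disulfide isomerase gene Pdia4 was at 0.36 ± 0.13 (unadjusted p = 0.0108), again with 6 libraries above every wildtype one. The log2 fold changes of Hspa5 were 0.63 in the 9000s, 0.48 in the 11000s and 0.55 with the mitochondrial share as a covariate. Homozygous livers stood at 757.2 ± 130.9 CPM of Hspa5 and 160.9 ± 38.7 CPM of Hyou1, beside heterozygous means of 768.9 ± 183.4 and 175.1 ± 44.8 CPM and chow means of 651.2 ± 159.4 and 165.9 ± 38.7 CPM. The stress and amino acid response list that holds Hspa5 was mixed: 10 of its 15 tested members lay above 0 (median 0.16), 2 with an unadjusted p under 0.05. In the 9000s 7 lay above 0 (median -0.05) and in the 11000s 13 (median 0.35). Its members ran from -0.31 to 0.54, and Dnajb9, a partner of Hspa5, was at 0.48 ± 0.24 (unadjusted p = 0.0625).

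The other genes of the 12 have varied roles. Il22ra1, the receptor subunit through which hepatocytes sense interleukin-22, had the largest log2 fold change, 1.23 ± 0.33 (unadjusted p = 9.98e-04). It was scarce, with 0.625 to 1.73 CPM (median 1.31) in wildtype and 1.49 to 4.67 CPM (median 2.13) in heterozygous libraries, where libraries 2, 6 and 7 held more than 4 CPM. Slc10a5, of the bile acid transporter family, was at 15.8 ± 2.35 against 23.8 ± 7.26 CPM (0.60 ± 0.17, unadjusted p = 0.00126). Mctp2, a membrane protein with calcium-binding C2 domains, was one of the few genes without overlap, with at most 7.42 CPM in wildtype and at least 7.75 CPM in heterozygous libraries. Pde4dip, Arhgef11, Nfatc3, Slc35e1 and Ubxn2a completed the set, at log2 fold changes of 0.33, 0.27, 0.24, 0.53 and 0.31. All 12 were also above 0 in each number series and in homozygous against wildtype livers, a comparison that uses the same wildtype libraries. The series are parts of the libraries that picked these genes, so their shared sign is no separate support. All 12 were smaller with the mitochondrial share as a covariate, and all kept an unadjusted p under 0.05.

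Among the 12 with lower values were Mtarc1 itself (-0.55 ± 0.15, unadjusted p = 9.04e-04) and genes known from contractile and vascular cells. Acta2, the smooth muscle actin of myofibroblasts, ran from 3.27 to 22.7 CPM (median 7.60) in wildtype and 3.42 to 9.91 CPM (median 4.29) in heterozygous libraries. Tagln, an actin-binding protein of the same cells, ran from 18.1 to 47.9 CPM (median 22.3) against 13.4 to 27 CPM (median 19.5). Their log2 fold changes of -1.04 ± 0.32 and -0.66 ± 0.20 were -0.27 and -0.16 without wildtype libraries 2 and 3, which held 22.7 and 17 CPM of Acta2 and 47.9 and 44.8 CPM of Tagln. Nos3, the nitric oxide synthase of endothelium, was at 3.93 to 8.55 CPM (median 6.47) in wildtype and 2.18 to 6.13 CPM (median 4.01) in heterozygous libraries (-0.70 ± 0.21, unadjusted p = 0.00310). Cdh13, a cadherin that binds adiponectin, was low in all libraries and did not overlap, with at least 1.88 CPM in wildtype and at most 1.87 CPM in heterozygous livers (-0.64 ± 0.17, unadjusted p = 8.37e-04).

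Vamp5, a vesicle membrane protein, had the lowest p of the set (6.02e-04), with 15.8 to 22.3 CPM (median 19.2) in wildtype and 13.2 to 16.8 CPM (median 14) in heterozygous libraries. Rpl38 and Mrps28, ribosomal proteins of the cytosol and the mitochondrion, were at -0.46 ± 0.14 and -0.30 ± 0.10. Rpia of the pentose phosphate pathway, Tmcc2, Cmtm3 and Olfr77 were at -0.37, -0.54, -0.43 and -0.61. Olfr77 belongs to the olfactory receptor family, and its reads, at most 3.55 CPM, are uncertain. All 12 lay below 0 in each number series, and 9 were further from 0 in the 9000s than in the 11000s. The same libraries picked these genes, so the shared sign is again no separate support.

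Without any model, 12 genes (0.0702%) had every heterozygous library above every wildtype library and 4 (0.0234%) had every one below. For 7 against 6 libraries full separation stands at the smallest possible two-sided exact permutation p, 0.00117, before any adjustment. Among 17104 genes some would separate in this way by chance, so a lack of overlap is by itself no evidence of a difference. The lower 4 were Cdh13, Tbxa2r, Rps24 and Gm11703, and all but Cdh13 were named after their values were seen. Tbxa2r, the thromboxane receptor, had 1.03 to 1.33 CPM in wildtype and 0.548 to 0.774 CPM in heterozygous libraries (-0.88 ± 0.22, unadjusted p = 4.05e-04). Of the higher 12, chosen in the same way, Uso1 (a vesicle tether of the ER to Golgi route) was at 75.3 to 91.7 against 93.3 to 118.1 CPM. Hspa13, a chaperone of the ER, was at 22.1 to 29.7 against 29.8 to 57.1 CPM. Osbp, which exchanges cholesterol between ER and Golgi, was at 45.4 to 54.9 against 56.0 to 69.8 CPM. Rab6a, Zbtb7b, Shc1 and Fam168a were among the rest, with log2 fold changes from 0.10 to 0.29.

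Genes of cholesterol synthesis lay above 0 without exception, by small amounts and without passing the test. All 24 members were higher in heterozygous livers (median 0.41, range 0.06 to 0.65), and 1 had an unadjusted p under 0.05, against 4.13% of all genes. That one was Insig1, the sterol sensor that holds SREBP in the ER, with 121.0 to 245.8 CPM (median 175.3) in wildtype and 199.6 to 447.7 CPM (median 234.7) in heterozygous libraries (0.58 ± 0.22, unadjusted p = 0.0120). Srebf2, the transcription factor of the pathway, was at 64.4 ± 13.4 against 77.1 ± 7.63 CPM. The median of the list was 0.73 in the 9000s, 0.15 in the 11000s and 0.24 with the mitochondrial share as a covariate. It was 0.17 without the 4 libraries of high mitochondrial share and 0.38 without wildtype libraries 2 and 3, where 23 of 24 members lay above 0.

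Fatty acid synthesis resembled it, with 16 of 18 members above 0 (median 0.28) and 2 at an unadjusted p under 0.05. Fasn, the fatty acid synthase, stood at 130.8 to 257.0 CPM (median 178.0) in wildtype and 126.7 to 620.3 CPM (median 256.1) in heterozygous libraries (0.59 ± 0.26, unadjusted p = 0.0335). The highest value came from heterozygous library 5 and the lowest from library 4. Gpam, which starts glycerolipid synthesis at the outer mitochondrial membrane, was at 115.4 ± 24.1 against 149.3 ± 30.7 CPM (0.37 ± 0.16, unadjusted p = 0.0309). Acly and Scd1, which make cytosolic acetyl-CoA and monounsaturated fatty acids, were at 0.45 ± 0.22 and 0.71 ± 0.37. Scd1 was at 1787.3 ± 569.8 CPM in chow livers and at 159.4 ± 77.7 and 260.3 ± 130.0 CPM in wildtype and heterozygous livers on CDAHFD. The list's median was 0.60 in the 9000s, 0.03 in the 11000s and 0.10 with the covariate. It was 0.15 without wildtype libraries 2 and 3 and 0.24 without the high-share libraries, where 18 of 18 members lay above 0.

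Triglyceride synthesis and droplet genes were close to the background, with 13 of 23 above 0 (median 0.03). The 2 with an unadjusted p under 0.05, both higher, serve export: Mttp, which loads lipid onto apolipoprotein B, at 178.2 ± 22.2 against 222.4 ± 40.3 CPM, and Apob at 2885.6 ± 440.5 against 3506.6 ± 656.8 CPM. Their log2 fold changes of 0.32 and 0.28 were each 0.09 with the mitochondrial share as a covariate. Of 15 uptake genes 8 lay above 0 (median 0.02), with the lipoprotein receptor gene Lrp1 at 0.28 ± 0.12. Fatty acid oxidation had 19 of 24 members above 0 (median 0.13), none at an unadjusted p under 0.05, with Cyp4a14 at 0.54 ± 0.31 and Cpt2 at 0.19 ± 0.10. Choline and phosphatidylcholine genes had 20 of 22 above 0 (median 0.18, but 0.31 in the 9000s, 0.00 in the 11000s and 0.05 without the high-share libraries), and Selenoi, which makes phosphatidylethanolamine, was at 0.35 ± 0.15 (unadjusted p = 0.0266). The demethylation genes Dmgdh and Bhmt2 of the same list were at 0.30 ± 0.15 and 0.26 ± 0.13. Of 16 mouse orthologs of genes linked to human fatty liver 12 lay above 0 (median 0.08), and the 3 with an unadjusted p under 0.05 were Gpam, Mttp and Apob.

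Other lists of hepatocyte functions had medians somewhat above 0 over all libraries, above 0 in the 9000s and below 0 in the 11000s. Urea cycle and amino acid genes had 17 of 17 above 0 (median 0.22), with medians of 0.67 in the 9000s and -0.15 in the 11000s. Drug-metabolising enzymes had 17 of 18 (median 0.24, then 0.62 and -0.10), and bile acid genes 17 of 21 (median 0.15, then 0.44 and -0.06). Nags, the enzyme that makes the activator of the urea cycle, was at 54.8 ± 12.3 against 67.0 ± 6.10 CPM. Cyp2c29 and Cyp3a13, both from cytochrome families with near-identical members, were at 0.73 ± 0.38 and 0.46 ± 0.21. Abcb11, the bile salt export pump, was at 448.6 ± 64.5 against 556.0 ± 78.2 CPM (0.31 ± 0.13, unadjusted p = 0.0276). With the mitochondrial share as a covariate the 3 medians were 0.07, 0.05 and 0.01, and without the 4 high-share libraries 0.03, 0.06 and 0.07. Without wildtype libraries 2 and 3 they were 0.04, 0.16 and 0.12.

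Pericentral genes had 11 of 11 members above 0 (median 0.27) and 3 with an unadjusted p under 0.05: Glul, Gulo and Cyp27a1. Gulo, of vitamin C synthesis, ran from 274.7 to 456.9 CPM (median 377.0) in wildtype and 400.9 to 585.7 CPM (median 460.5) in heterozygous libraries. Glul, the glutamine synthetase of the innermost pericentral cells, was at 1229.6 ± 179.4 against 1506.2 ± 163.6 CPM, with 1221.4 ± 198.0 CPM in homozygous livers. Cyp27a1, of bile acid synthesis, was at 0.26 ± 0.11. This list stayed above 0 in both series, at 0.44 and 0.10, and was 0.18 with the covariate and 0.08 without the high-share libraries. Periportal genes had 11 of 12 above 0 (median 0.13). Their median was 0.53 in the 9000s, -0.06 in the 11000s and -0.03 without the high-share libraries, with Cyp17a1 at 0.81 ± 0.32, of which 1.41 in the 9000s and 0.07 in the 11000s.

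Plasma proteins had 10 of 14 above 0 (median 0.12, and 0.03 without the high-share libraries), with transferrin (Trf) at 0.31 ± 0.16, and acute phase genes 9 of 13 (median 0.09), with Itih4 at 0.41 ± 0.21. Hepatocyte transcription factors had 9 of 13 above 0 (median 0.18, with 0.45 in the 9000s and -0.07 in the 11000s). Nr5a2, a nuclear receptor, was at 33.9 to 52.8 CPM (median 43.0) against 38.5 to 67.0 CPM (median 61.3), a log2 fold change of 0.38 ± 0.15 (unadjusted p = 0.0193). Glycolysis and gluconeogenesis had 11 of 16 above 0 (median 0.12, with 0.36 in the 9000s and -0.07 in the 11000s), with Pfkl at 0.28 ± 0.14. Clock genes had 13 of 17 (median 0.25, with 0.46 in the 9000s and 0.01 in the 11000s), with Cry1 at 0.53 ± 0.22. In the growth hormone list 10 of 17 lay above 0 (median 0.10), while Socs2 and Cish, feedback inhibitors induced by growth hormone, were at -0.92 ± 0.43 and -0.72 ± 0.36. Socs2 ran from 17.7 to 93.5 CPM in wildtype and 10.5 to 49.6 CPM in heterozygous libraries, so that the groups overlapped widely.

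Genes around the mARC enzymes showed small differences. Molybdenum cofactor genes and the other molybdoenzymes had 9 of 9 members above 0 (median 0.25, 0.38 in the 9000s and 0.17 in the 11000s, 0.09 with the mitochondrial share as a covariate and 0.10 without the high-share libraries). Xdh, the xanthine dehydrogenase that also carries the cofactor, was at 142.9 to 204.4 CPM (median 171.3) in wildtype and 174.0 to 274.7 CPM (median 203.6) in heterozygous libraries (0.32 ± 0.11, unadjusted p = 0.00626). Gphn and Mocs1, of cofactor synthesis, were at 0.25 ± 0.10 and 0.19 ± 0.10. In the mARC electron chain 3 of 6 lay above 0 (median 0.05), with the outer-membrane cytochrome b5 gene Cyb5b at 209.5 ± 76.4 against 279.7 ± 67.7 CPM (unadjusted p = 0.0821). Outer-membrane genes had 17 of 21 above 0 (median 0.10), and Tomm22, of the import pore, and Fis1, of fission, were at -0.17 ± 0.07 and -0.17 ± 0.08.

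All 13 mitochondrial genome transcripts lay below 0 (median -0.27, range -0.44 to -0.15), 2 with an unadjusted p under 0.05 against 4.31% of all genes. mt-Nd6 was at 715.9 ± 185.8 against 526.4 ± 127.4 CPM, mt-Atp6 at 3796.4 ± 848.4 against 2793.7 ± 635.3 CPM and mt-Co3 at 6652.8 ± 1304.4 against 5351.9 ± 1017.8 CPM. They are the transcripts that make up the mitochondrial share, and the list's median was -0.02 with that share as a covariate and -0.09 without the high-share libraries. Nuclear genes of the respiratory chain had 12 of 24 above 0 (median 0.00) over all libraries, 19 in the 9000s (median 0.20), 3 in the 11000s (median -0.14) and 0 with the covariate (median -0.07), and Cox5b and Ndufa1 were at -0.30 ± 0.13 and -0.24 ± 0.11.

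Scar matrix genes were mostly lower in heterozygous livers, with a median that changed sign without 2 wildtype libraries. Of 29 members 27 lay below 0 (median -0.29), with 7 lower and 1 higher at an unadjusted p under 0.05, against 4.31% and 4.13% of all genes. Col3a1 was at 143.8, 273.0, 334.7, 122.9, 140.3 and 134.2 CPM in wildtype libraries 1 to 6 and between 106.7 and 172.2 CPM in heterozygous libraries (-0.41 ± 0.19). Col1a1, chosen like Col3a1 after its values were seen, was at 65.6 to 204.5 CPM (median 82.6) against 70.3 to 111.4 CPM (median 76.6). Sparc, a matrix-binding glycoprotein, was at 135.4 to 266.2 CPM (median 175.0) against 103.0 to 172.4 CPM (median 139.8). In each of these genes wildtype libraries 2 and 3 were the highest. Without them the list's median was 0.12, in the 9000s, which hold both, it was -0.62, and in the 11000s 0.15. These 2 were picked after their high values were seen, so a rise on leaving them out was largely fixed in advance. The median was -0.22 with the mitochondrial share as a covariate and -0.40 without the high-share libraries, which include wildtype library 2. The higher member was Fn1 (0.42 ± 0.20), which hepatocytes also secrete and which made up 46.6% of the list's summed level. The sum ran from 1743.6 to 2918.8 CPM in wildtype and from 1883.3 to 2520.2 CPM in heterozygous libraries.

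Macrophage markers also had medians of opposite sign in the 2 series. Monocyte-derived and lipid-associated macrophage markers had 3 of 19 above 0 (median -0.11), with -0.66 in the 9000s, 0.36 in the 11000s, 0.24 without wildtype libraries 2 and 3 and -0.28 without the high-share libraries. Trem2, the lipid receptor of these macrophages, was at 8.26, 19.4, 17.1, 9.28, 8.41 and 7.14 CPM in wildtype libraries 1 to 6. Heterozygous libraries 1 to 7 held 9.19, 7.58, 10.7, 18.5, 9.45, 7.57 and 12.4 CPM, and the groups overlapped completely (-0.11 ± 0.24, unadjusted p = 0.660). In homozygous livers Trem2 was at 5.69 ± 1.65 CPM, a log2 difference from heterozygous livers of -0.92 ± 0.23 (unadjusted p = 4.41e-04, edgeR adjusted p = 0.339). Gpnmb, a glycoprotein of lipid-laden macrophages, was at 5.78 to 58.8 CPM (median 13.9) in wildtype and 11.6 to 43.9 CPM (median 17.2) in heterozygous libraries. Its log2 fold change was 0.03 ± 0.49, from -1.04 in the 9000s to 1.48 in the 11000s, with an unadjusted p of 0.0137 and an adjusted p of 0.496 for the difference between the series. Fabp5 and Spp1 were at -0.49 ± 0.27 and -0.32 ± 0.21. Wildtype libraries 2 and 3 held the highest wildtype values of Trem2 and Gpnmb, so the rise to 0.24 without them was largely fixed in advance. Heterozygous libraries 4 and 7, with 34.8 and 43.9 CPM of Gpnmb, stayed in. The same limit bears on the stellate, inflammatory and neutrophil medians given below without those wildtype libraries.

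**Figure D4:**
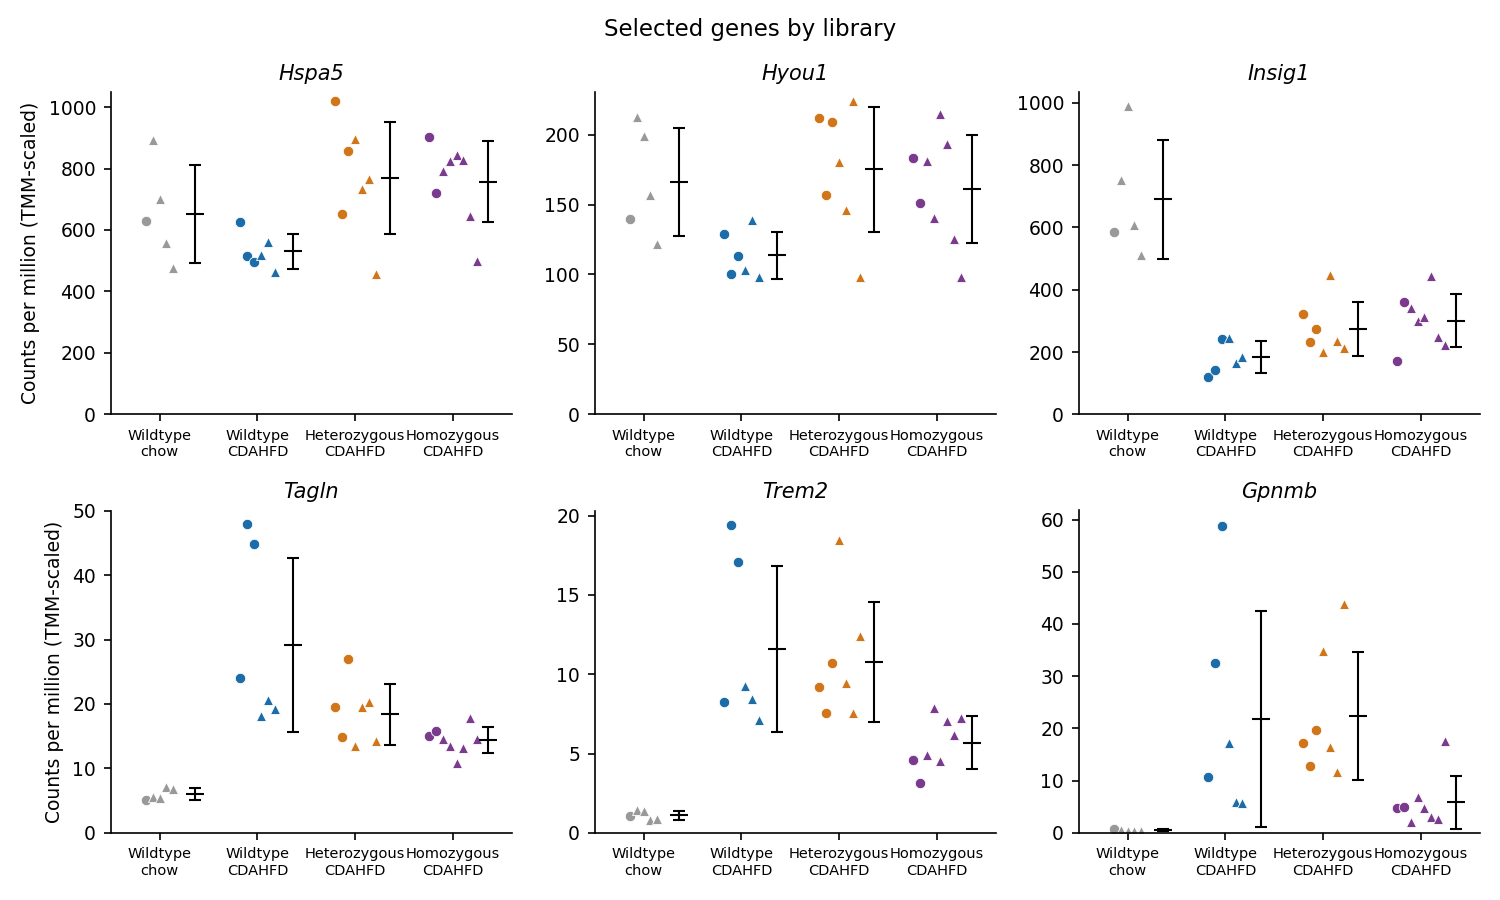
Level of 6 genes in every library (y axis, CPM on TMM-scaled library sizes, starting at 0) in the 4 groups (x axis), with circles for the 9000s, triangles for the 11000s and the mean with its SD beside each group. For Hspa5 and Hyou1, 6 of 7 heterozygous libraries lie above every wildtype CDAHFD library. For Tagln and Trem2 wildtype libraries 2 and 3 are the highest of their group, and heterozygous Trem2 and Gpnmb overlap with wildtype.

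Resident Kupffer cell genes had 1 of 12 above 0 (median -0.13), and C1qa was at 109.0 ± 12.1 against 90.1 ± 15 CPM (-0.27 ± 0.13) and Clec4f at -0.22 ± 0.15. In bulk tissue fewer cells of a type and less RNA per cell cannot be told apart. Endothelial genes had 0 of 12 above 0 (median -0.19, and -0.30 and -0.13 in the 2 series), with Pecam1 at -0.33 ± 0.16, Lyve1 at -0.54 ± 0.26 and Stab1 at -0.33 ± 0.17. Their summed level ran from 302.0 to 373.0 CPM in wildtype and from 176.1 to 395.2 CPM in heterozygous libraries, lowest in heterozygous library 7. Stellate cell markers had 4 of 12 above 0 (median -0.07), with 0 in the 9000s (median -0.21), 8 in the 11000s (median 0.11) and 8 without wildtype libraries 2 and 3 (median 0.05). Des was at 6.98 to 11.7 CPM against 3.78 to 8.32 CPM (-0.40 ± 0.17), highest in wildtype library 2, and at -0.24 without that library and library 3. Their summed level, 272.8 to 356.4 CPM against 213.9 to 430.7 CPM, was likewise lowest in heterozygous library 7.

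Inflammatory signalling had 4 of 20 above 0 (median -0.15, with -0.45 in the 9000s and 0.29 in the 11000s, and 0.21 without wildtype libraries 2 and 3), and the chemokine gene Ccl2 was at -0.48 ± 0.24. Interferon genes had 5 of 19 above 0 (median -0.10, with -0.22 in the 9000s and 0.07 in the 11000s), with Oas1a at -0.33 ± 0.17 and Irf7 at -0.25 ± 0.14. Cell division genes had 5 of 18 above 0 (median -0.31, and -0.56 without the high-share libraries), with Mki67 at 23.5 ± 7.49 against 17 ± 9.08 CPM and Bub1 at -0.57 ± 0.31. NRF2 targets had 9 of 17 (median 0.04), with Txnrd1 at 0.22 ± 0.13, and p53 and injury genes 8 of 12 (median 0.04), with Bax at -0.34 ± 0.18. Of the latter 0 lay above 0 in the 9000s (median -0.35) and 11 in the 11000s (median 0.42). Of these 5 lists no member had an unadjusted p under 0.05.

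Markers of other cells that a liver piece can hold gave few reads. Lymphocyte genes had 7 of 16 above 0 (median -0.07), and their sum ran from 18.1 to 28.7 CPM in wildtype and 13.2 to 36.1 CPM in heterozygous libraries. Of 11 neutrophil genes 4 had enough reads to be tested and 0 lay above 0 (median -0.08, but 0.41 without wildtype libraries 2 and 3). Bile duct genes had 1 of 7 above 0 (median -0.25), red cell genes 3 of 5 (median 0.03) and genes of pancreas, fat and muscle 0 of 2 (median -0.30). The sum of this last list was at most 3.16 CPM, and its member Lep was at 0 in all 13 libraries.

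Over the 39 lists 26 had a median above 0 and 13 at or below it, and of 570 different members tested 0 were called. At an unadjusted p under 0.05, 22 members were higher and 17 lower, against 4.13% and 4.31% of all genes. The members as a whole thus showed no excess over all genes. The median had opposite signs in the 2 number series for 25 lists, and it was further from 0 in the 9000s for 31. The genotype effect itself was tested for a difference between the series in each gene. edgeR called 0 of 17104 genes for that interaction (0%), with 1573 at an unadjusted p under 0.05 (9.20%). Within the 9000s alone 0 genes were called and 2852 had an unadjusted p under 0.05 (15.8%), and within the 11000s 0 and 569 (3.32%). The mean mitochondrial share was 11.1% against 7.41% in the 9000s and 9.10% against 8.59% in the 11000s, wildtype first. With the share as a covariate 0 genes were called and 423 had an unadjusted p under 0.05.

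**Figure D5:**
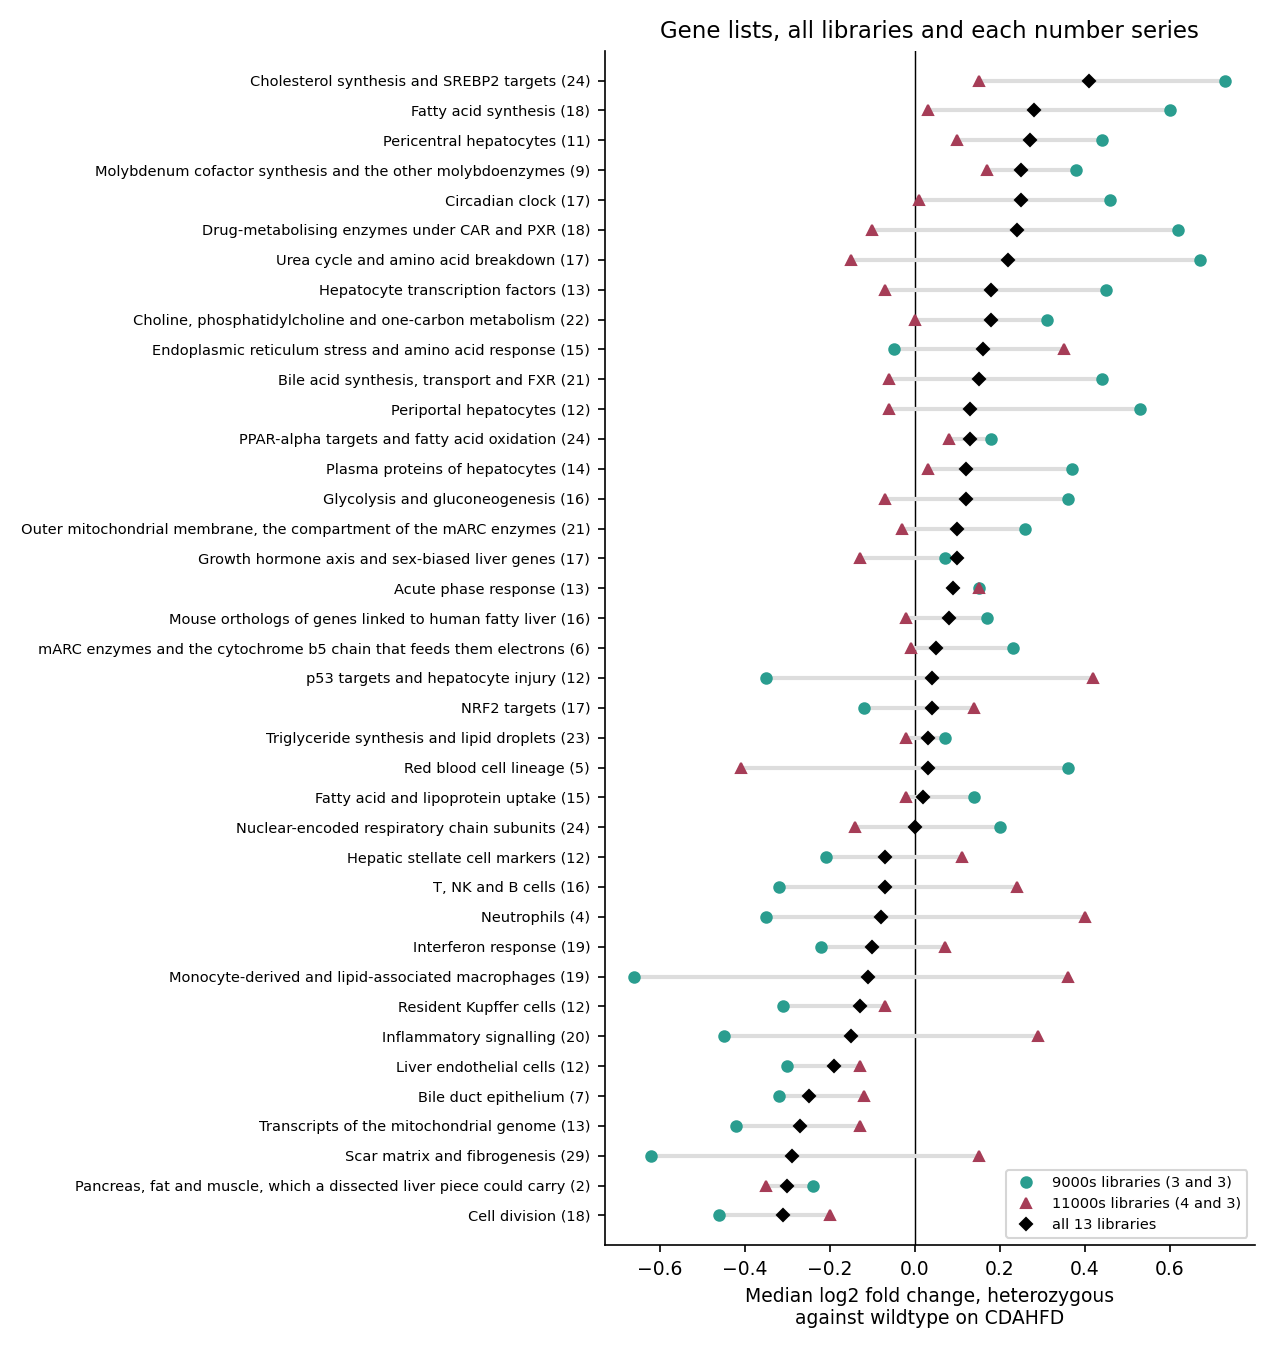
Median log2 fold change of each gene list, heterozygous against wildtype on CDAHFD (x axis), with the number of tested members in brackets. Black diamonds use all 13 libraries, green circles the 9000s and red triangles the 11000s. Cholesterol synthesis is at 0.41 with 0.73 and 0.15 in the series, and the scar matrix and macrophage lists change sign between them.

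Whether heterozygous livers lay off the middle between wildtype and homozygous livers was tested for each gene on the log2 scale. edgeR called 0 of 17104 genes (0%), with 1209 at an unadjusted p under 0.05 (7.07%). voom called 0, with 1135 at an unadjusted p under 0.05, and DESeq2 called 3. The lowest p belonged to Mtarc1, where part of the offset was fixed in advance by the log2 scale. Among the named genes Ubxn2a and Il22ra1 followed. Ubxn2a, a cofactor of the p97 protein that extracts misfolded proteins, was at 15.4 ± 1.60 CPM in wildtype, 19.1 ± 2.25 CPM in heterozygous and 15.7 ± 1.29 CPM in homozygous livers (0.30 ± 0.07 off the middle, unadjusted p = 4.32e-04). Il22ra1 was at 1.22 ± 0.409, 2.86 ± 1.37 and 1.73 ± 0.977 CPM in the same order. Homozygous against heterozygous livers gave 1 called gene (0.00585%), Mtarc1 (-1.72 ± 0.14, edgeR adjusted p = 2.36e-08).

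The neighbours of Mtarc1 were compared as a group. Of the 40 nearest tested genes, 20 on each side, 23 lay above and 17 below 0 (median 0.06, range -0.70 to 0.44). An unadjusted p under 0.05 was found for 5 (2 higher and 3 lower), against 8.44% of all genes in either direction. The nearest genes, Mtarc2 and the homeobox gene Hlx, were at 0.00 ± 0.10 and -0.10 ± 0.15. The 4 named by lowest p were Mia3, an organiser of collagen export from the ER, at 0.32 ± 0.14, and 1700056E22Rik, Gm37254 and 1700047M11Rik at -0.70 ± 0.26, -0.49 ± 0.20 and -0.40 ± 0.17. None passed after adjustment.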

How the data were processed

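Per the labels' protocols, liver RNA was taken on RNeasy columns and made into libraries with a NEBNext Ultra II kit. The deposited table holds estimated counts (expected counts, which need not be whole) for 55642 gene IDs in 26 libraries. Cutadapt 3.5, Salmon 1.4.0 and the builds GRCm39 and mm39 are named in the submitters' processing notes. The sources used here do not give the strand setting or how transcripts were combined into genes. Of the values above 0, 54.4% were whole (tolerance 1e-06), and columns not used numbered 0. Groups came from the sample titles. Symbols came from matching IDs to a GENCODE annotation of another build, GRCm38, used only for names, gene types, neighbours and transcript lengths. It matched 51475 IDs (92.5%).

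The counts, rounded, went into edgeR 4.0.16 (R 4.3.3): TMM, filterByExpr by group, robust quasi-likelihood fits of all 26 libraries in 4 groups, 17104 genes, Benjamini-Hochberg adjustment and a threshold of 0.05. SE is the standard error of a log2 fold change. The biological coefficient of variation was 21.5%. DESeq2 1.42.0, voom in limma 3.58.1, other scalings and filters, a number series term, a mitochondrial share covariate and leaving out libraries were alternatives. Single levels were compared with two-sided exact permutation tests in scipy 1.17.1, and the edgeR steps were tested on simulated data. No pair of libraries within a group looked like a duplicate (chi-square per degree of freedom 24.9 to 129.4 over 36 pairs).

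Libraries compared, gene lists and tests were chosen with earlier results of these data known. Named genes were Mtarc1 and Mtarc2, the 12 protein-coding genes with the lowest unadjusted p in each direction at a mean of at least 1 CPM, up to 3 members with the lowest p per list, the nearest and up to 4 other neighbours of Mtarc1, the 3 lowest p off the middle of the other genotypes, and Xist with Y-linked genes. Some genes this rule would name are not reported here. Trem2, Gpnmb, Col1a1, Col3a1, Fn1, Scd1, the genes called by DESeq2 and those without overlap were added after their values were seen, as was Hnf4a with Alb as a check of tissue.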

Additional observations from a re-analysis of the deposited data

Results flagged for a closer look

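For 10 of 216 groups of 6 or 7 libraries (4.63%), over the genes named in the text, 1 library lay far from the rest, and chance alone gives about 1 in 20. In wildtype library 3 these were Spp1 (179.5 CPM), Scd1 (310.5 CPM) and Tbxa2r (1.03 CPM), in wildtype library 2 Des (11.7 CPM) and in wildtype library 4 Pde4dip (76.3 CPM). In heterozygous libraries they were Srebf2 (61.2 CPM, library 4), Fasn (620.3 CPM, library 5), Cish (31.9 CPM, library 1), and Osbp (69.8 CPM) and Rab6a (78.1 CPM) in library 6. Tbxa2r and Srebf2 were low and the others high.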

How the results depend on the processing

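No alternative run with edgeR or voom called a gene between heterozygous and wildtype livers, and DESeq2 called 2. Off the middle of the other genotypes DESeq2 called 3, these 2 and Mtarc1. The number of genes at an unadjusted p under 0.05 depended on single libraries, with 0 called throughout. It was 824, 734, 2267 and 830 without wildtype libraries 1, 2, 3 and 5, 906, 2679 and 826 without heterozygous libraries 2, 4 and 7, and 459 without the 4 libraries of over 11% mitochondrial share. Same-numbered libraries of the 2 groups did not pair throughout, with correlations of 0.24, -0.184, 0.269, -0.371, 0.201 and 0.17. In 3 of the 6 numbers each library correlated best with its own number, so a partial pairing was not settled. A replicate block on these numbers called 0 genes, with 1391 at an unadjusted p under 0.05. Mtarc1 stood at 65.0% to 71.8% of wildtype (log2 fold change -0.62 to -0.48) on leaving out each library, at 83.1% in the 9000s and at 57.6% in the 11000s.

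Leaving out the 4 high-share libraries, or wildtype libraries 2 and 3 together, was chosen after seeing the data. Of 105 genes followed, 33 of 2827 values changed sign, and the cause was not tested. Mtarc2 was at 0.15 in the 9000s, 0.00 with RLE scaling, without a filter, with DESeq2 and with a series term. In the 11000s Ccl2, Hlx, Trem2, Col1a1 and Col3a1 were at 0.10, 0.07, 0.54, 0.19 and 0.18. Without wildtype libraries 2 and 3 Ccl2, Trem2, Col1a1 and Col3a1 were at 0.01, 0.38, 0.15 and 0.09. Without the 4 high-share libraries Cish was at 0.18, Rpl36a-ps2 at 0.00 and Gpnmb at -0.46. Gpnmb was at -1.04 in the 9000s and -0.01 with upper-quartile scaling. On leaving out each library in turn Mtarc2 ran from -0.04 to 0.03, Hlx from -0.19 to 0.00, Trem2 from -0.30 to 0.08 and Gpnmb from -0.22 to 0.63. Estimated counts carry no interval for the assignment of reads, and genes near 1 CPM, such as Il22ra1, Tbxa2r and Cdh13, rest on few reads.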

Other observations

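Lists put together after the values were seen are described here by counts and medians, with no test. Of 26 genes that fold or modify proteins in the ER, 25 lay above 0 in heterozygous against wildtype livers (median 0.29, against -0.01 for all genes), and 13 had an unadjusted p under 0.05, all higher, against 4.13% of all genes. Their median was 0.34 in the 9000s, 0.28 in the 11000s, 0.20 with the mitochondrial share as a covariate and 0.20 in homozygous against wildtype livers, which share the wildtype libraries. The summed level was 5889.7 to 7003.8 CPM in wildtype libraries and 7353.7 to 8662.0 CPM in heterozygous libraries 1 to 6, with 6512.5 CPM in library 7. Of 54 genes of transport between ER and Golgi 50 lay above 0 (median 0.18), 21 of them with an unadjusted p under 0.05, at 0.29 in the 9000s, 0.13 in the 11000s and 0.10 with the covariate.

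Cytosolic ribosomal protein genes, whose many pseudogenes can share their reads, lay mostly below 0. Of 81, 71 lay below 0 (median -0.16), and 35 were lower at an unadjusted p under 0.05, against 4.31% of all genes. The medians were -0.14 and -0.15 in the 2 series, -0.09 with the mitochondrial share as a covariate and -0.07 without the high-share libraries. Whether the shift goes with transcript length was not tested for this list. Their summed level was 15645.3 ± 1221.4 CPM (SD, n = 6) in wildtype and 14310.4 ± 693.2 CPM (n = 7) in heterozygous livers, and 14248.8 ± 1002.3 CPM in homozygous livers.

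Fold changes were also set against transcript length over all genes. Among 13712 genes of at least 1 CPM with a known length, split into 5 equal groups by length, the group of the shortest had a median of -0.06 on the log2 scale, and 32 were higher and 221 lower at an unadjusted p under 0.05. The group of the longest had a median of 0.04, and 206 were higher and 70 lower. These medians were -0.09 and 0.09 in the 11000s, and 0.00 and -0.01 in the 9000s, where no such order was seen. The 20 most abundant genes took 24.9 ± 1.28% of counts in wildtype and 23.6 ± 0.703% in heterozygous libraries (two-sided exact permutation p = 0.0466).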
